A study of Mus musculus with 4 samples.

Results

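Classical monocytes of the mouse lung were picked cell by cell from single-cell RNA libraries, by raw UMI counts (a UMI, or unique molecular identifier, stands for 1 captured RNA molecule). A cell was a member if it held at least 2 UMIs of Ly6c2, at least 1 of Ccr2 and at least 1 of Vcan or F13a1, none of Cd3e, Cd79a, Marco or Car4, and less than 2% of its UMIs from S100a8 plus S100a9. Of 27544 cells kept, 531 were members. DPBS WT gave 134 members and DPBS KO 102, Papain WT gave 219 and Papain KO 76. Values are given below in this order of libraries unless stated otherwise. The levels of the gate genes chose the cells and are given as a description only.

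All mice had the C57BL/6 background and floxed Ift20 alleles, and the study used males of 5 to 10 weeks. WT mice (Ift20 f/f) carried these alleles alone, and KO mice (Ift20 f/f CD4 cre) also carried a Cre transgene under the Cd4 promoter, which acts in developing T cells. Papain, a plant protease used as an inhaled allergen, was given intranasally at 25 µg on 3 consecutive days and again on day 14, and lungs were taken on day 15. The buffered saline DPBS was given to controls. Live cells were sorted as 7-AAD-negative and CD45.2-positive, so leukocytes of any type could be present. Each group was 1 library, and the number of mice in it was not given in the sources used here, so differences between libraries have no replicate check and carry no p-value. Intervals are exact and 95%, and they cover counting error only.

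Classical monocytes are made in the bone marrow and leave it through the receptor CCR2, and Ly6C marks them in mouse blood. They enter inflamed tissue, where they can become macrophages or antigen-presenting cells, and in blood they can convert into nonclassical monocytes, which patrol the vessel wall under the factor NR4A1. In the lung they are found in the capillary bed as well as in the tissue, and the labels do not tell these sites apart.

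The members were deeper than most cells. The median member held 11886.5, 13131, 13527 and 12556.5 UMIs, against 6114.5, 6779.5, 6442.5 and 6901.5 in all kept cells, and 3039.5, 3173, 3375 and 3157.5 genes. Their summed counts were 1616265, 1381505, 2973640 and 979315 UMIs, so that 3 UMIs, the floor used where a gene was at 0, correspond to 1.86, 2.17, 1.01 and 3.06 CPM (a gene's UMIs over all members of a library per 1000000 of their UMIs). Members with fewer than 7000 UMIs numbered 7, 1, 18 and 1. Pairs of libraries shared 6 to 14 kept barcodes and no pair shared a member, and 1 member's barcode was also kept in another library. Ift20, the floxed gene, stood at 57.3, 25.6, 63.6 and 19.2 CPM in CD4 T cells and at 41.5, 52.1, 60.2 and 44.9 CPM in the members. It was lower in both KO libraries in the T cells and was not ordered by genotype in the monocytes.

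Ly6c2 had a median of 9, 8, 8 and 7 UMIs per member. The members just inside its threshold, with exactly 2 UMIs, numbered 17, 12, 27 and 10, while 39, 48, 78 and 59 cells met every condition but this one, of which 15, 19, 25 and 14 had 1 UMI. Ccr2 was at 1 UMI in 15, 10, 7 and 6 members, and 11, 10, 7 and 11 cells failed only for having none. F13a1, the transglutaminase subunit of clotting factor XIII, was detected in 131, 98, 214 and 71 members. Vcan, which encodes the matrix proteoglycan versican, was detected in 36, 37, 145 and 29, so F13a1 admitted most members and Vcan was most widespread in Papain WT. The condition on S100a8 and S100a9 removed 0, 0, 5 and 0 further cells, with a median of 3.98% in those 5, and the highest member reached 1.59%. That DPBS KO member held 157 of the 158 S100a8 UMIs of its library.

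Lyz2 and Plac8, which lie outside the gate, were found in nearly all members. Lyz2, the lysozyme of monocytes and macrophages, stood at 36664, 33007, 29879 and 32595 CPM and was detected in every member. Plac8, a small cysteine-rich protein of circulating monocytes, was detected in 134, 102, 215 and 76 members. Markers of other cell types were low. For T cells, B cells, alveolar macrophages and neutrophils the gate itself excludes cells with key markers, so their low sums are no independent evidence of purity. Dendritic cell genes, which the gate does not exclude, summed to 184, 121, 137 and 99.0 CPM. Of 12 eosinophil, basophil and mast cell markers 9 were at 0 in all libraries and the summed level was 1.01 to 1.86 CPM, and of 6 erythrocyte markers 5 were at 0. Of 15 neutrophil markers Ly6g, Camp and Ngp were at 0 and the sum was 192, 251, 289.5 and 197 CPM. T cell markers summed to 33.3 to 74.9 CPM, natural killer markers to 11.4 to 23.5 CPM, and B cell markers to 189.6 to 303 CPM, most of it Ighm. Alveolar macrophage markers summed to 2299.8, 2317, 2905 and 2299.6 CPM, most of it Chil3 and Ccl6, which monocytes also express.

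Among the kept cells of DPBS WT 1.65% were members (1.38 to 1.95), and of DPBS KO 1.79% (1.46 to 2.17). For the papain libraries the shares were 2.74% (2.39 to 3.12) with WT and 1.33% (1.05 to 1.67) with KO mice. Papain WT stood above the other libraries and its interval touched none of theirs. The share in papain over DPBS was 1.67-fold (1.34 to 2.08) in WT and 0.745-fold (0.546 to 1.01) in KO, and KO over WT was 1.09-fold (0.832 to 1.42) in DPBS and 0.487-fold (0.370 to 0.634) in papain. The gate needs several UMIs and depends on depth, so it was repeated with every cell thinned to 2000 UMIs. Then 36, 18, 62 and 15 cells passed, or 0.451%, 0.323%, 0.803% and 0.266%, and KO over WT in DPBS turned to 0.717-fold (0.383 to 1.30). Shares are of all sorted cells and move with every other type in the sort.

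**Figure D1:**
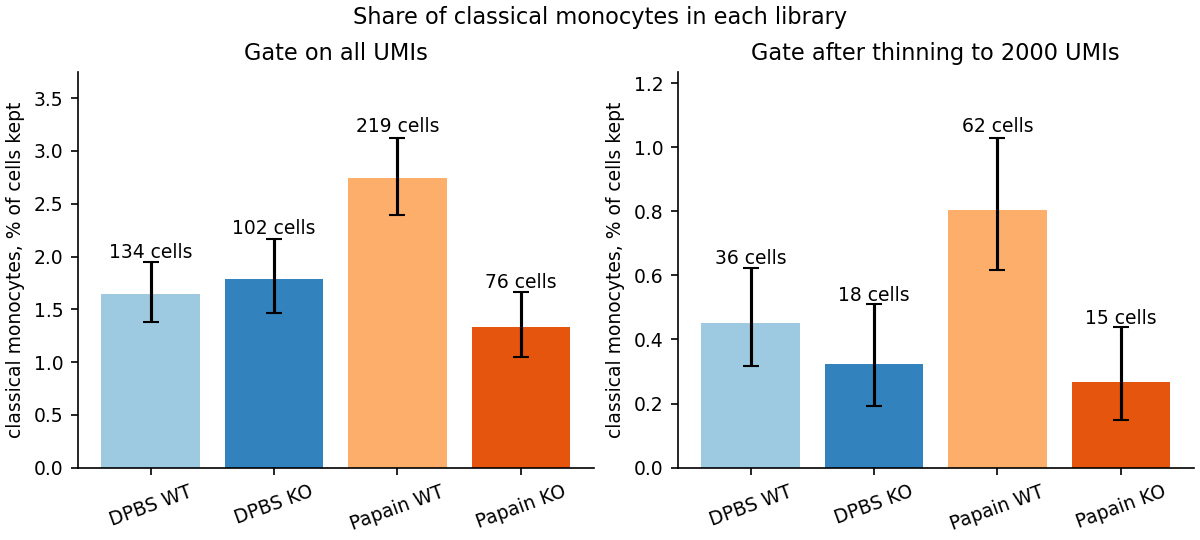
Classical monocytes as a percentage of kept cells in each library (left, all UMIs; right, every cell thinned to 2000 UMIs); bars show the share, error bars the exact binomial 95% interval, and the number above each bar the members. Papain WT is highest in both panels, at 2.74% and 0.803%.

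The members were set against 2 neighbouring populations of the same libraries, each defined by its own gate: 1213 nonclassical monocytes (Ly6c2 at most 1 UMI, Cx3cr1, and Ace, Treml4 or Eno3) and 169 macrophages with C1qa, C1qb and C1qc. UMIs were summed per population and library and compared by edgeR's quasi-likelihood test with the library as a block, and a call needed a Benjamini-Hochberg adjusted p under 0.05 and a 2-fold change. Gate genes took part in the fits but not in the calls. Genes that go with the gate genes differ because of how the cells were chosen, and are no independent evidence of what the cells are.

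Against nonclassical monocytes, classical monocytes had higher levels of most interferon-stimulated genes and of many classical monocyte genes outside the gate, and lower levels of most nonclassical monocyte genes. Higher calls covered 3.76% of 8849 genes tested and lower calls 4.32%. Of 18 classical monocyte genes outside the gate, 10 were higher and none lower, with a median log2 fold change of 1.19 against -0.01 over all genes. Fn1, the matrix protein fibronectin, stood at 674, 626, 1026 and 682 CPM in the members and 50.8, 116, 131 and 454 CPM in nonclassical monocytes. The nonclassical level was highest in Papain KO, and the fitted log2 fold change was 2.43 (SE 0.301, adjusted p = 6.20e-06 by edgeR's quasi-likelihood test). Mmp8, the neutrophil-type collagenase, was higher by 2.49, and Ccl2, the ligand of CCR2, by 2.20 on the log2 scale, each in 4 of 4 libraries. By list, 4 of 17 inflammatory cytokines and chemokines were higher and none lower (median 0.21), 5 of 14 coagulation and matrix genes were higher and 1 lower, and 1 of 21 lipid and iron handling genes was higher and 5 lower (median -0.21).

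The leading genes by fold were Dmkn (log2 fold change 3.21), Cd177 (3.18), a surface protein best known from neutrophils, and Prtn3 (3.12), the granule protease proteinase 3, followed by C1rl, Nrg1, Crybb1, Tarm1, Upb1, Itga1 and Ifi205. Cd177 stood at 142, 153, 125 and 124 CPM in the members and 14.5, 13.9, 16.3 and 18.03 CPM in nonclassical monocytes, so each library showed the difference at a similar size. Prtn3 stood at 11.8, 13.03, 102 and 9.19 CPM against 0.382, 0, 8.63 and 7.07 CPM, and in Papain KO the 2 populations were close.

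Interferon-stimulated genes, which block viral replication, were higher in 19 of 26 tested and lower in none, with a median log2 fold change of 1.25. Usp18, which restrains interferon receptor signalling, stood at 27.8, 14.5, 24.5 and 19.4 CPM in the members and 5.72, 2.46, 7.63 and 1.41 CPM in nonclassical monocytes. Ifit2, an RNA-binding antiviral protein, was higher by 2.38 on the log2 scale in 4 of 4 libraries. Ifit1, its relative, passed with 1.17 and was higher in 3 of 4 libraries: in Papain KO it was at 5.11 CPM against 11.0 CPM.

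The genes with the largest lower folds were Cd300e (log2 fold change -5.24), an activating receptor of mature monocytes, Jade2, Slc5a11, Retnlg (-4.56), C1qa (-4.33), Lilra5, Slc12a2, Dnah12, Fabp4 (-3.94) and Vegfc. Of 15 nonclassical monocyte genes outside the gates, 13 were lower and none higher (median -1.90). Fabp4, a fatty acid carrier, stood at 23.5, 34.0, 11.1 and 25.5 CPM in the members and at 292 to 391 CPM in nonclassical monocytes. Cd36, a scavenger receptor for oxidised lipid, was lower by 3.45 on the log2 scale, Itgax, the integrin CD11c, by 3.28, and Pparg, a lipid-sensing nuclear receptor, by 2.61. Nr4a1 itself stood at 664, 536, 462 and 597 CPM in the members and 1300.0 to 1581 CPM in nonclassical monocytes (log2 fold change -1.24, adjusted p = 1.04e-09 by edgeR's quasi-likelihood test). Of 9 neutrophil markers 5 were lower, and S100a8, a gate gene, was at 147 to 391 CPM in nonclassical monocytes. The part of neutrophil RNA in this difference was not tested.

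Against the C1q macrophages, classical monocytes were higher in most classical monocyte and interferon-stimulated genes and lower in most inflammatory cytokines and chemokines, MHC class II and macrophage differentiation genes. Higher calls covered 6.1% of 7283 genes and lower calls 9.43%. Of 18 classical monocyte genes outside the gate 14 were higher and 1 lower (median 2.32), the exception being Fn1 at -1.54. Among the leading higher genes were Cd177 (log2 fold change 6.57), Ifit3 (4.78), Plac8 (4.73) and Hp (4.49), then Ly6i, Rnf144a, Mx1, Met and Dmkn. Hp, the haemoglobin scavenger haptoglobin, stood at 638, 670.3, 1123 and 915 CPM in the members and at 0, 0, 16.0 and 203 CPM in the macrophages, where Papain KO was the highest. Interferon-stimulated genes were higher in 21 of 25 tested (median 2.22), and of 12 antimicrobial and oxidative burst genes 4 were higher and 1 lower. Because the macrophage counts are 31, 21, 79 and 38 cells, single cells weigh heavily on their side.

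Lower in the members were Retnla, Mmp12, H2-M2, Fcrls, Ccl17, Cadm1, Apbb2, Rhoc, AA467197 and Ephx1. Retnla, a secreted product of alternatively activated macrophages, stood at 0 to 2.02 CPM in the members and 2457 to 3963 CPM in the macrophages. Mmp12, the macrophage elastase, reached 1.86 CPM at most against 177 to 1247 CPM. Of 19 inflammatory cytokines and chemokines 16 were lower and none higher (median -2.61): Cxcl2, a neutrophil-attracting chemokine, stood at 237, 556, 501 and 325 CPM against 3154 to 5954 CPM. MHC class II genes were lower in 8 of 12 (median -1.56) and macrophage differentiation genes in 12 of 18 (median -2.01), among them Mrc1, the mannose receptor, at -3.81. Alternative activation genes were lower in 10 of 19 and higher in 1. Apoe, a lipid carrier, was under 2-fold (log2 fold change -0.48, adjusted p = 0.0320 by edgeR) and was lower in 3 of 4 libraries.

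**Figure D2:**
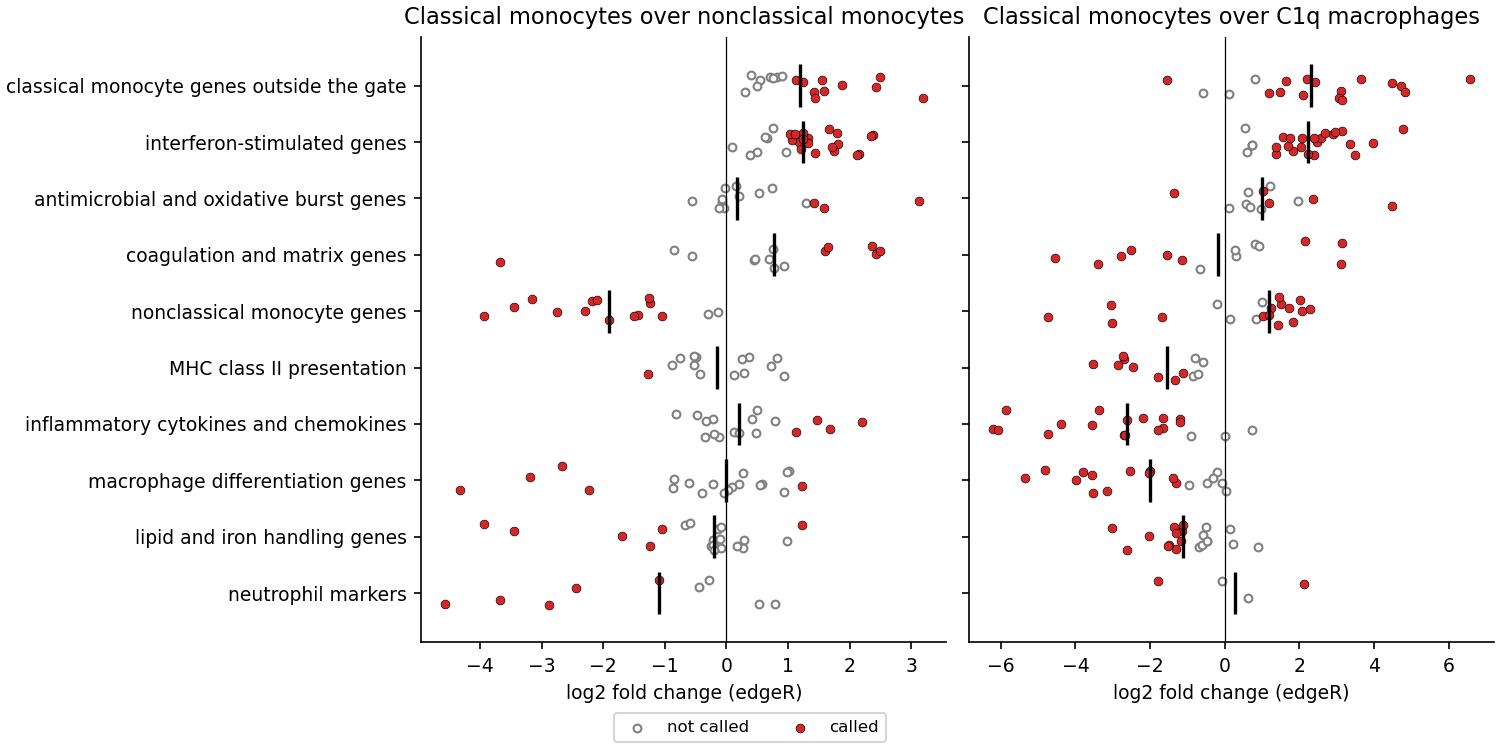
Log2 fold changes from edgeR for the genes of 10 lists, classical over nonclassical monocytes (left) and over C1q macrophages (right); each point is a gene, filled where called, and the bar is the list's median. Interferon-stimulated genes lie to the right in both panels, with medians of 1.25 and 2.22, while nonclassical monocyte genes lie to the left in the first (median -1.90).

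In the comparison of classical with nonclassical monocytes 1 of 14 MHC class II genes was lower and none higher (median log2 fold change -0.15). The libraries were unequal in this: Cd74 was at 6225, 5438, 2409.8 and 6652 CPM in the members and 7272, 7218, 6952 and 8373 CPM in nonclassical monocytes, with the widest gap in Papain WT. Class II levels also differed widely among the members. Class II molecules show peptides to CD4 T cells: H2-Aa, H2-Ab1 and H2-Eb1 encode the chains, Cd74 the chaperone, H2-DMa and H2-DMb1 the peptide editor, and Ciita the coactivator that switches the set on through short promoter boxes. The 120 bases before the start site are shown for 3 of these genes, since the class II genes are described as a group below. They are RefSeq promoters of GRCm38.p6, 5′ to 3′, on the strand of the gene, with capitals on TGATTGG (a Y box sequence) and on TGATGATG or TGACGTCA (sequences of the X box kind).
H2-Aa (chr17:34287824-34287943, minus strand): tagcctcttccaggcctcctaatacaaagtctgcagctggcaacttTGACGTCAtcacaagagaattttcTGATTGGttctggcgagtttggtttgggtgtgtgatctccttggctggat
H2-Eb1 (chr17:34305747-34305866, plus strand): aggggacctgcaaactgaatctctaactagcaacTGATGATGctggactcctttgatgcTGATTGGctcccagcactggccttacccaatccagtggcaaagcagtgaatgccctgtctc
H2-DMb1 (chr17:34153071-34153190, plus strand): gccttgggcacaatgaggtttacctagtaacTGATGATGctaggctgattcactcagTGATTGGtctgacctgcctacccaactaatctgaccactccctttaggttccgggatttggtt

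In each the first box began 74 to 89 bases and TGATTGG 50 to 63 bases before the start site. Searched on both strands over the same 120 bases, TGATTGG was in 5.15% of 32851 promoters and in 7 of the 10 listed class II genes that had a promoter sequence, TGATGATG in 0.630% and 2 of 10, and TGACGTCA in 1.24% and 1 of 10. TGATTGG together with either of the other motifs was in 32 promoters (0.0974%). A match describes these letters and is not a measured binding site.

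Class II UMIs were concentrated in few members. The summed UMIs of H2-Aa, H2-Ab1 and H2-Eb1 had a median of 0.963, 1.54, 0.792 and 2.02 per 10000 UMIs of a member, and 47, 23, 70 and 16 members had none. Members above 50 per 10000 numbered 24, 17, 19 and 17, and they held 91.6%, 82.1%, 81.7% and 89.8% of all class II UMIs. Their share was 17.9% (11.8 to 25.5), 16.7% (10.0 to 25.3), 8.68% (5.30 to 13.2) and 22.4% (13.6 to 33.4), lowest in Papain WT. In CD4 T cells, which should lack these genes, cells above the same level were 1.40%, 1.03%, 1.93% and 1.24%. The highest members reached 579.9, 405, 307 and 350.1 per 10000.

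**Figure D3:**
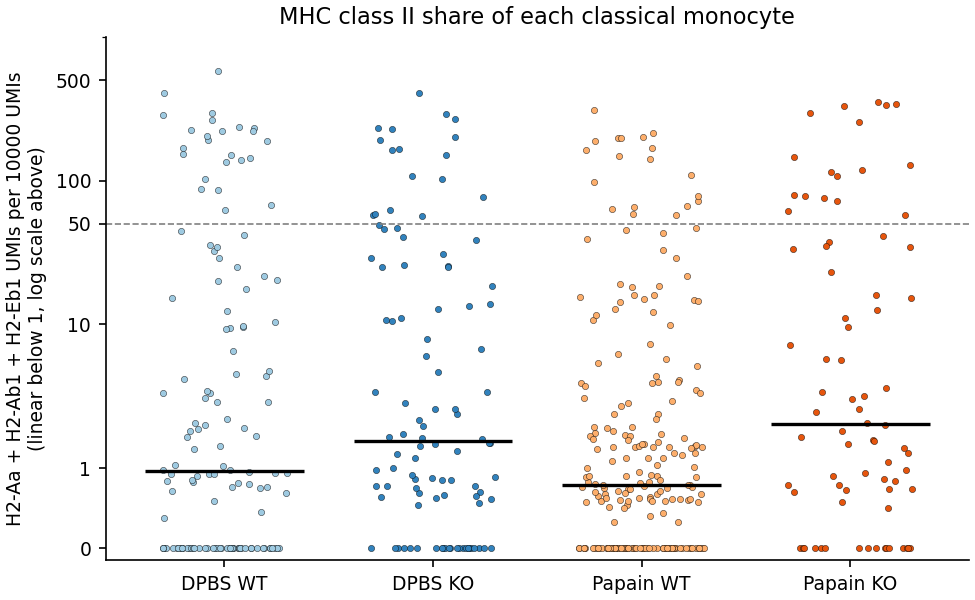
Summed UMIs of H2-Aa, H2-Ab1 and H2-Eb1 per 10000 UMIs in each classical monocyte, by library (axis linear below 1 and logarithmic above); each point is a member, the black bar the median and the dashed line 50 per 10000. Most members lie below 10 in every library, and 24, 17, 19 and 17 lie above the line.

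The members were ranked by these 3 genes within each library, and the upper 44, 34, 73 and 25 were compared with as many at the lower end by edgeR's quasi-likelihood test with the library as a block. The upper members began at 4.78, 10.7, 1.61 and 15.3 per 10000. In Papain WT 19 of the 73 lay above 50, so the upper groups were not alike between libraries. The 3 ranking genes were left out of the calls. Of 5127 genes, 0.527% were higher and 0.273% lower in the upper members. Cd74 stood at 17412, 14333, 6897 and 17025 CPM in the upper and 486, 521, 257 and 409 CPM in the lower members (log2 fold change 5.04, SE 0.0852, adjusted p = 1.84e-26 by edgeR). Ciita was higher by 4.04 and H2-DMb1 by 2.83 on the log2 scale, so genes of the same machinery were higher with the ranking genes in 4 of 4 libraries. Genes that go with the ranking genes differ because of how the members were ranked. Their p-values are therefore no independent evidence of a distinct group of members.

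Of 18 nonclassical monocyte genes 3 were higher and none lower, as were 2 of 13 macrophage differentiation genes and 2 of 2 dendritic cell genes. Leading genes were C1qb (log2 fold change 4.49), Fabp4 (2.71), Itgax (2.21), Cxcl10 (2.18, in 3 of 4 libraries), Tcf7l2 (1.94), Clec4b1 and Slamf7. C1qb, a chain of the first complement component, was at 28.6 to 93.6 CPM in the upper members and 0 to 3.12 CPM in the lower ones. Of 18 classical monocyte genes outside the gate 4 were lower and none higher (median -0.40). Among the genes with the largest lower folds were Slpi (-1.86), an antiprotease, Ccr1 (-1.63), a chemokine receptor, Cxcl2 (-1.46), Fn1 (-1.30), Ccl2 (-1.24) and Mmp8 (-1.23), with Mfsd7a, Hopx and Tmem38b. Fn1 was at 215 to 692 CPM in the upper and 898 to 1203 CPM in the lower members. Ccl2 was higher in the upper members of DPBS WT, at 184 against 135 CPM, and lower in the other libraries. None of 24 interferon-stimulated genes was called in either direction. The calls numbered 41 in all, 24 by DESeq2 and 23 without the block, and those of Cxcl10, Clec4b1, Slamf7, Cxcl2, Mfsd7a, Ccl2, Mmp8, Hopx and Tmem38b were each lost under at least 1 alternative. Without Papain WT the value for Cxcl10 was 1.10 (adjusted p = 0.288 by edgeR).

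Papain was compared with DPBS within each genotype, library against library. Of 7646 genes with at least 50 UMIs over the members, 2.22% were 2-fold or more higher and 0.942% lower with papain in WT, and 2.56% were higher and 2.45% lower in KO. The median log2 ratio over all genes was 0.05 in WT and 0.00 in KO. In both genotypes 21 genes were higher (0.275%) and 8 lower (0.105%), and the 2 comparisons share no library. Of these 29 genes (0.379%), only Cxcl10 had 200 UMIs or more, and the intervals left out 0 in both genotypes for 9 of the higher and 2 of the lower.

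Of 15 inflammatory cytokines and chemokines 2 were among the genes higher in both genotypes, and of 14 chemokine receptors and adhesion genes none. Cxcl10, an interferon-induced attractant of T cells, was at 37.7, 35.5, 78.7 and 87.8 CPM (log2 ratio 1.06, interval 0.65 to 1.49, in WT and 1.31, 0.79 to 1.84, in KO). Both papain libraries were high, yet 13, 15, 27 and 13 members held its UMIs and 1 Papain WT member held 136 of 234. With the top member of each library left out the WT log2 ratio was 0.18, and among members with 6 or more Ly6c2 UMIs it was -0.28. Cxcl3, a neutrophil-attracting chemokine, was at 4.33, 4.34, 21.9 and 26.5 CPM in 3, 2, 17 and 5 members, and 1 Papain KO member held 21 of 26 UMIs. Nrg1, a growth factor of the neuregulin family, was more widely spread, at 8.04, 8.69, 24.9 and 23.5 CPM in 7, 8, 36 and 9 members (1.63, 0.77 to 2.60, and 1.44, 0.37 to 2.58). Rab29, a small GTPase of vesicle traffic, was at 14.2, 12.3, 34.3 and 34.7 CPM in 21, 15, 78 and 27 members, with no member above 4 UMIs. Ccr1, which binds inflammatory chemokines, was 1.35 (0.89 to 1.83) higher in WT and 0.87 (0.34 to 1.41) in KO on the log2 scale, from 29.7, 39.1, 75.7 and 71.5 CPM, so that the papain libraries did not overlap the DPBS libraries but KO was under 2-fold. The number of genes without such overlap was not counted.

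Of the remaining higher genes named by the rule, Samd1, Txlng, C5ar2, Rfc4, Slc17a5 and Stmn1 had ratios above 1 on the log2 scale in both genotypes. This follows from the 2-fold rule that chose them. Among these genes the intervals left out 0 in both genotypes for Samd1 and Txlng only. Saa3, an acute phase protein, had 15, 1, 90 and 26 UMIs in 2, 1, 9 and 4 members, and the ratio in KO rests on that single UMI (log2 5.20, 2.59 to 10.6). Lrg1, a glycoprotein of the acute phase, had 1, 2, 77 and 4 UMIs, so it was high in Papain WT alone. Lif, a cytokine of the IL-6 family, had 7, 7, 35 and 12 UMIs, and its WT ratio changed sign among members with 6 or more Ly6c2 UMIs (-0.32).

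Lower in both genotypes by the 2-fold rule were Slamf9, Cd209a, Fasn, Dpp7, Capn15, Tns4 and Cd36. Among these named genes the intervals left out 0 in both genotypes for Cd36 alone. Cd36 was at 39.6, 40.5, 14.1 and 19.4 CPM in 22, 22, 17 and 7 members (log2 ratio -1.49, -2.08 to -0.90, in WT and -1.06, -1.90 to -0.29, in KO). Both papain libraries were low. Cd209a, a lectin of monocyte-derived dendritic cells, was at 38.4, 12.3, 8.07 and 4.08 CPM. Outside DPBS WT it rested on 2 members in each library, and single members held 16 of 17 UMIs in DPBS KO and 23 of 24 in Papain WT. Hes1, a transcriptional repressor downstream of Notch, was lower by 0.69 in WT and by 1.03 in KO on the log2 scale, from 126, 134, 77.7 and 65.4 CPM.

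**Figure D4:**
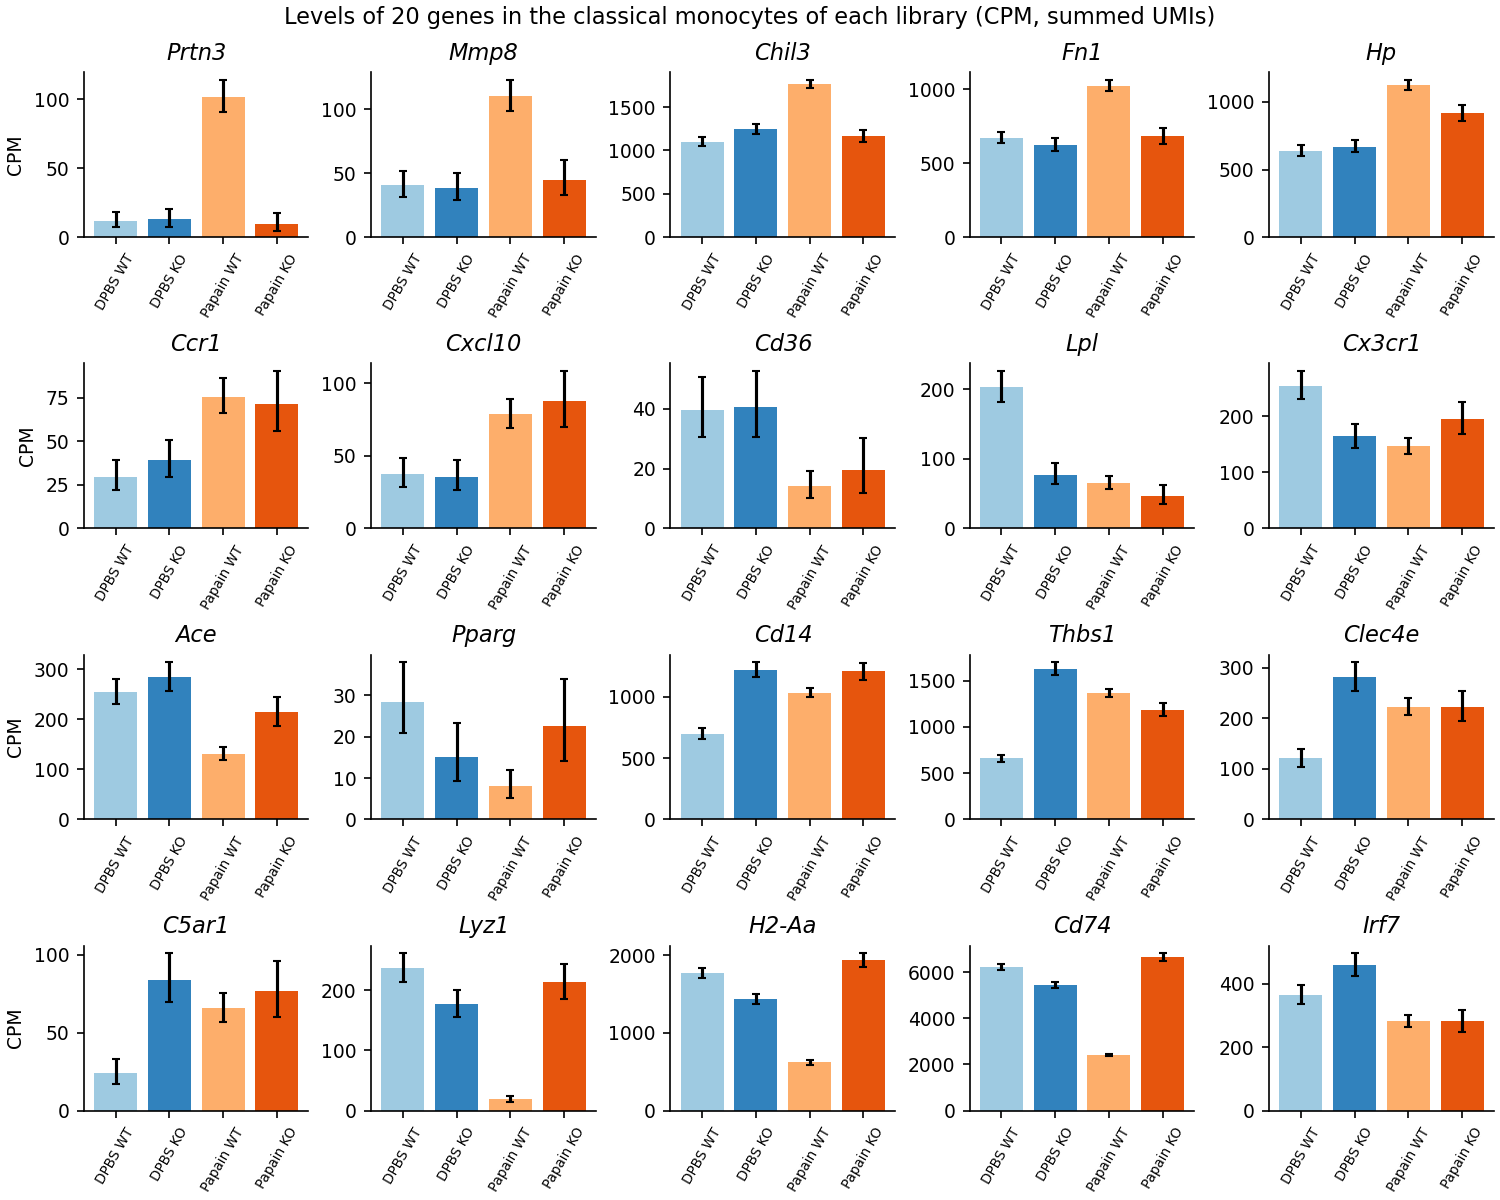
CPM of 20 genes in the classical monocytes of each library, with exact Poisson 95% intervals over the summed UMIs (counting error only; axes start at 0). Prtn3 (102 CPM) and Mmp8 (110.3 CPM) are high in Papain WT alone, H2-Aa (619 CPM) and Cd74 (2409.8 CPM) low in Papain WT alone, and Cd14 (700.4 CPM), Thbs1 (659.5 CPM) and Clec4e (121 CPM) low in DPBS WT alone.

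Several genes were high in Papain WT alone. Prtn3 was at 102 CPM there and 9.19 to 13.03 CPM elsewhere, in 109 of 219 members against 14, 12 and 9. Its log2 ratio was 3.11 (2.44 to 3.86) in WT and -0.50 (-1.84 to 0.73) in KO, and 1 member held 58 of 302 UMIs. Mmp8 was at 40.8, 38.4, 110.3 and 44.9 CPM (1.43, 1.05 to 1.84, and 0.23, -0.38 to 0.83). Mmp19, another matrix metalloproteinase, was at 9.28, 20.3, 40.7 and 13.3 CPM (WT 2.13, 1.35 to 3.01). These proteases were all highest in Papain WT, and Fn1 (1026 CPM) and F10, the clotting factor X (161, 177, 259 and 182 CPM), were highest there too, by less than 2-fold.

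Several genes of this pattern were also higher in other cells of the same library. Chil3, a chitinase-like protein, was at 1103, 1249, 1763 and 1169 CPM in the members, and at 12530, 13984, 29388 and 15429 CPM in alveolar macrophages. In B cells, which should lack it, it was at 787, 538, 2434 and 493 CPM. Lcn2, an iron-withholding protein of neutrophils, had 2, 3, 94 and 1 UMIs in 2, 2, 30 and 1 members, and in neutrophils, of which there were 117, 100, 341 and 214, it was at 654, 523, 948 and 775 CPM. Prtn3 in neutrophils was at 0, 0, 6.30 and 3.94 CPM, below its level in the members, and Lcn2 in B cells was at 0.895 to 5.94 CPM. In C1q macrophages Prtn3 was at 35.7 CPM in Papain KO and at 0.943 CPM or less elsewhere. The part of RNA from other cells in these differences was not tested.

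Of 12 MHC class II presentation genes, 6 were 2-fold or more lower with papain in WT and none higher (median log2 ratio -0.84), while in KO none passed 2-fold in either direction (median 0.24, with 9 above 0). In KO 3844 of all 7646 genes lay above 0. H2-Aa was at 1773, 1432, 619 and 1931 CPM (WT -1.52, -1.60 to -1.43; KO 0.43, 0.34 to 0.52). H2-Ab1 was at 1438, 1085, 571 and 1592 CPM and H2-Eb1 at 1004, 589.9, 293 and 979 CPM. Cd74 had the levels given above. Each was lowest in Papain WT, as was Ciita at 39.0, 18.8, 17.8 and 26.5 CPM, though only just below DPBS KO. Ctss, the protease that trims the Cd74 product, was level at 2209, 2276, 2193 and 2306 CPM. In nonclassical monocytes H2-Aa was at 1798, 1627, 1942 and 2265 CPM, without the low value in Papain WT. The summed levels rest mostly on the few members above 50 per 10000, and the median member differed less. The upper quartile of the members lay below that level, at 19.4, 25.3, 3.22 and 35.6 per 10000. It too was lowest in Papain WT, so the low value was not confined to the members above 50.

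Nonclassical monocyte genes had a median log2 ratio of -0.52 in WT, where 0 of 19 lay above 0 and 2 were 2-fold or more lower, and of -0.41 in KO, where 5 of 19 lay above 0 and 2 were lower. Over all 7646 genes, 4354 lay above 0 in WT and 3844 in KO. Cx3cr1, the fractalkine receptor, was at 255, 164, 147 and 196 CPM (-0.79 and 0.25). Ace, the angiotensin-converting enzyme, was at 254, 284, 131 and 213 CPM (-0.95 and -0.41), and Nr4a1 had log2 ratios of -0.52 (-0.64 to -0.41) in WT and 0.16 in KO. Pparg was at 28.5, 15.2, 8.07 and 22.5 CPM (-1.82, -2.59 to -1.08, in WT and 0.56 in KO). Lpl, the lipase that releases fatty acids, was high in DPBS WT, at 203, 77.5, 65.2 and 47.0 CPM, and lower with papain in both genotypes by 1.64 and 0.72 on the log2 scale. In DPBS WT, Lpl in alveolar macrophages was at 2607 CPM, and in the other libraries at 2157 to 2336 CPM.

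**Figure D5:**
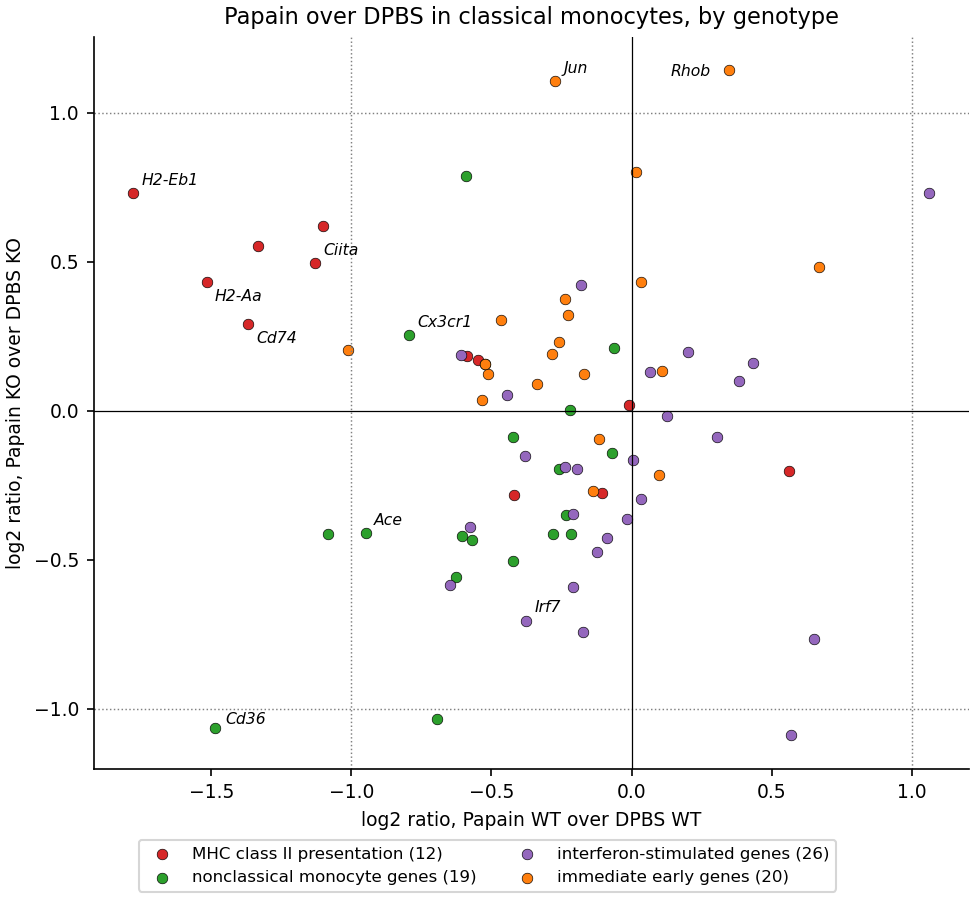
Log2 ratio of papain over DPBS in WT (horizontal) and in KO (vertical) for the tested genes of 4 lists in classical monocytes; each point is a gene and dotted lines mark 2-fold. MHC class II genes lie to the left and mostly above 0 (medians -0.84 and 0.24), and nonclassical monocyte genes lie to the left (median -0.52).

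A further set differed because DPBS WT was low. Cd14, the coreceptor for lipopolysaccharide, was at 700.4, 1222, 1034 and 1208 CPM. Clec4e, a receptor for glycolipids of mycobacteria, was at 121, 281, 222 and 223 CPM, and C5ar1, the receptor for complement C5a, at 24.1, 84.0, 65.6 and 76.6 CPM in 20, 49, 87 and 26 members. Thbs1, the matrix protein thrombospondin 1, was at 659.5, 1628, 1367 and 1186 CPM. Papain over DPBS was thus above 0 in WT (Thbs1 1.05, 0.95 to 1.15; C5ar1 1.44, 0.94 to 1.98) and near or below 0 in KO (-0.46 and -0.13). DPBS WT was also the lowest library in nonclassical monocytes, with Cd14 at 260.3, 486, 463 and 612 CPM and Thbs1 at 235, 429, 395 and 577 CPM, so the low values were not particular to the classical monocytes.

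Immediate early genes, which respond to any handling or signal within minutes, had 1 of 20 lower and none higher in WT, and 2 higher in KO. Jun was at 1120, 485, 927 and 1045 CPM and Rhob at 322, 230.2, 409.9 and 509 CPM. DPBS KO was the low library for both. Among heat shock genes, which respond to misfolded protein, Hspa1b was at 653, 442, 707 and 1059 CPM and Hspa1a at 2345, 1398, 2267 and 2771 CPM, with the same low library. Reads of these 2 near-identical genes may be divided between them. Interferon-stimulated genes had median log2 ratios of -0.10 in WT and -0.19 in KO for papain over DPBS. Of the 26, 1 was 2-fold higher in WT, Ifit2, and 1 was 2-fold lower in KO, Oasl1, at 16.1, 26.1, 23.9 and 12.3 CPM. Fosb was the 1 lower immediate early gene, at 261, 127, 129 and 146 CPM, and it was high in DPBS WT.

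Of the inflammatory cytokines and chemokines 4 of 15 were higher with papain in each genotype and none lower, 2 of them, Cxcl3 and Cxcl10, in both. Il1b was at 882, 1097, 615 and 915 CPM, lowest in Papain WT, and Tnf was at 50.1, 34.7, 25.9 and 58.2 CPM. Cxcl2 went opposite ways, at 237, 556, 501 and 325 CPM. Cxcl9 was high in Papain WT through 1 member with 78 of 79 UMIs, and Ccl24, an eosinophil attractant, through 1 member with 76 of 90. Elane, neutrophil elastase, was found in 1 Papain WT member, with all 26 UMIs. Single members thus made up these values.

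Dividing cell genes were higher in 6 of 11 tested with papain in WT (median log2 ratio 1.44) and in 1 of 11 in KO (median 0.06). Mki67 had 11, 1, 69 and 1 UMIs in 4, 1, 6 and 1 members, and 1 member held 32 of 69. Top2a, a DNA topoisomerase, was in 4, 5, 9 and 4 members and Stmn1, a tubulin-binding protein of cycling cells, in 7, 6, 18 and 10. The Papain WT values for these genes thus came from a small number of members out of 219. Lyz1 was at 236, 177, 18.5 and 213 CPM and so lower in Papain WT (-3.68, -4.11 to -3.26). It was detected in 22, 17, 32 and 16 members, 1 DPBS WT member held 240 of 382 UMIs, and reads may be shared with its near-identical paralog Lyz2.

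The Cre of the KO mice is directed to T cells and not to monocytes, so KO over WT sets side by side monocytes from lungs whose T cells differ in Ift20. In DPBS 1.52% of the 7646 genes were 2-fold or more higher in KO and 3.05% lower, and in papain 0.876% were higher and 3.96% lower. These comparisons use the same 4 libraries as those of papain with DPBS, so a library that stands apart enters both. In both treatments 2 genes were higher (0.0262%) and 31 lower (0.405%), or 33 in all (0.432%).

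The 2 higher genes were Slc15a2, a peptide transporter, and Cbarp, a regulator of calcium channels. Slc15a2 had 12, 24, 2 and 23 UMIs, or 7.42, 17.4, 0.673 and 23.5 CPM, and its KO over WT log2 ratio was 1.23 (0.17 to 2.36) without and 5.13 (3.11 to 8.26) with papain. It was higher in KO in both treatments in the 6 other populations examined as well, for example at 12.5, 30.6, 2.97 and 36.5 CPM in B cells. With the gate on thinned cells its DPBS ratio turned to -0.78. Cbarp was at 6.19, 15.2, 4.04 and 16.3 CPM (1.30 and 2.02).

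Among the genes lower in KO in both treatments, Hspb1, Notch1 and Slc31a2 had at least 200 UMIs. Hspb1, a small heat shock protein, had 82, 0, 119 and 11 UMIs in 11, 0, 17 and 7 members. With the 0 set to the floor of 3 UMIs, KO was 23.4-fold lower in DPBS, a value that leaves out counting error. The log2 ratio of Hspb1 in papain was -1.83 (-2.87 to -0.94). Notch1 was at 37.1, 13.03, 47.1 and 21.4 CPM in 40, 16, 88 and 18 members (-1.51, -2.36 to -0.73, and -1.13, -1.87 to -0.47). Slc31a2, a copper transporter of vesicles, was at 43.3, 19.5, 38 and 17.4 CPM (-1.15 and -1.13). Both KO libraries lay below both WT libraries for these genes, which largely follows from the 2-fold rule that chose them. Hspb1 was lower in KO in both treatments in nonclassical monocytes and B cells as well. It was higher in KO in DPBS neutrophils (200 against 1.81 CPM in WT) and in papain C1q macrophages (80.7 against 5.66 CPM). In CD4 T cells and alveolar macrophages Hspb1 was lower in KO in DPBS only. The rule further names Mki67, Mgl2, Fam219b, Wfdc21, Dgcr6, Slamf9 and Paqr7, of which Mgl2 rested on 1 member with 29 of 30 UMIs in DPBS WT and 1 with 43 of 44 in Papain WT.

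Of 26 interferon-stimulated genes, 5 had a log2 ratio above 0 in DPBS (median -0.28) and 1 in papain (median -0.45), against medians of -0.04 and -0.09 over all genes. Of all 7646 genes, 3476 lay above 0 in DPBS and 3042 in papain. None passed 2-fold in DPBS and 2 were lower in papain. Xaf1, a regulator of cell death, was at 81.7, 44.2, 70.6 and 34.7 CPM (-0.89, -1.35 to -0.44, and -1.02, -1.59 to -0.50). Rtp4, a chaperone of receptors, was at 120.03, 76.0, 105 and 66.4 CPM (-0.66 in each), and in nonclassical monocytes at 51.1, 23.4, 54.7 and 24.04 CPM. Parp14 was at 69.3, 46.3, 71.0 and 37.8 CPM. Both KO libraries were below both WT libraries for these 3 genes, which were picked from the 26. How many of the 26, or of all genes, had this order was not counted. Xaf1 had it in nonclassical monocytes too, at 40.1, 19.3, 41.5 and 23.0 CPM. It was also so ordered in CD4 T cells, B cells and neutrophils, and not in C1q or alveolar macrophages. Irf7, a factor that amplifies the interferon response, was at 365, 459, 281 and 282 CPM, with both papain libraries below both DPBS libraries. Genes in this order were not counted either.

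Class II presentation genes were all above 0 in KO over WT after papain, 12 of 12, with 5 of them 2-fold or more higher (median 0.64), and 3 of 12 were above 0 in DPBS, with 1 lower (median -0.25). H2-Aa had log2 ratios of 1.64 (1.55 to 1.73) in papain and -0.31 (-0.39 to -0.22) in DPBS. Papain WT, the low library, is the base of the first. With the gate on thinned cells the papain ratio was 3.90 (3.64 to 4.15), from 62 Papain WT and 15 Papain KO cells. That interval leaves out the spread between cells. Nonclassical monocyte genes were above 0 for 17 of 19 in papain (median 0.36) and for 12 of 19 in DPBS (median 0.14). For all 7646 genes these counts were 3042 in papain and 3476 in DPBS. Axl, a receptor for dying cells, was at 45.8, 52.1, 21.2 and 53.1 CPM, and Flt1, a receptor for vascular growth factor, at 34.0, 36.9, 16.1 and 48.0 CPM, each low in Papain WT. Chil3, Fn1 and Mmp8 were lower in KO after papain by 0.59, 0.59 and 1.30 on the log2 scale.

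Other genes of monocyte function were closer between libraries. The subunits of the phagocyte oxidase were level: Cybb, its catalytic subunit, was at 1153, 1069, 1273 and 1101 CPM and Cyba at 1757, 1758, 1726 and 1746 CPM. Of 16 glycolysis genes none passed 2-fold in any of the 4 comparisons, and Gapdh was at 1059.9, 1099.5, 1143 and 1009.9 CPM. Of the growth factor receptors, Csf1r, on which monocytes depend, was at 739, 735, 659 and 625 CPM. Spi1, the PU.1 factor of the myeloid lineage, was at 662, 619, 592 and 716 CPM. Irf8, which directs monocyte development, was less even, at 302, 169, 246 and 200.1 CPM and highest in DPBS WT, and Csf2rb, the shared chain of the GM-CSF, IL-3 and IL-5 receptors, was at 160.2, 231, 262 and 213 CPM and lowest there. Il4ra and Il13ra1, receptors of the type 2 cytokines, were at 71.2, 54.3, 80.4 and 65.4 CPM and 74.2, 86.1, 92.8 and 107 CPM, with papain ratios of 0.18 to 0.32 on the log2 scale in both genotypes.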

How the data were processed

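The deposited values were raw counts of UMIs per gene and barcode from sorted lung CD45.2+ cells, made by the authors with Cell Ranger (version 3.1.0 in the file headers) from 3′ libraries, with mm10 named in the submitters' processing notes. Each of the 4 matrices held 31053 genes, and 0 per-sample columns were left unmapped. Libraries held 53854420 to 75675956 UMIs.

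Barcodes with more than 200 genes and under 15% mitochondrial UMIs were kept. The study states such limits for a spleen T cell experiment, and not for these libraries. The members and the gene lists (31 lists, 485 genes, 480 of them in the files) were chosen with earlier results of these data known. Doublets were not removed in the main analysis. The top Scrublet scores (scanpy 1.11.5), at a rate proportional to the number of barcodes, were left out in an alternative.

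UMIs were summed over the members of a library. With 1 library per group, ratios were called past 2-fold for genes with at least 50 UMIs over the members, with exact conditional 95% intervals and no test. Populations were compared over the 4 libraries with edgeR 4.0.16 (R 4.3.3; filterByExpr, TMM, quasi-likelihood test, Benjamini-Hochberg adjustment, 2-fold). The library was a block because each library gave both populations of a pair. These p-values set the difference between populations against a spread over the 4 libraries that is estimated partly from all genes together. A low p-value can thus go with an uneven gene, such as Prtn3, whose nonclassical level was close to that of the members in Papain KO. The libraries differ in genotype and treatment and are not replicates of 1 condition. The edgeR steps were first tested on simulated data.

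Named genes were the gate genes, genes of the lists, the 12 genes per direction with the largest smaller log2 ratio in both genotypes (8 for KO over WT in both treatments), and the 10 called genes per direction with the largest fold in each fit. Predicted, Rik, ribosomal and mitochondrial genes were counted and not named, and some genes that the rule names are not reported here. Alternatives covered the gate (Ly6c2 at 3 or 6, thinning, 1% S100a8 plus S100a9, 10% mitochondrial), UMI minimums of 10 and 200, scaling, DESeq2 1.42.0, no filter, no block and each library left out. Promoters were RefSeq sequences of GRCm38.p6.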

Additional observations from a re-analysis of the deposited data

Results flagged for a closer look

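Of 342 list genes examined, 8 moved in opposite directions with papain in WT and in KO with counting intervals on opposite sides of 0 and at least 2-fold in one of them. The difference between genotypes was not tested, since each group was 1 library. The intervals treat each UMI as independent and leave out the spread between members. Class II UMIs came mostly from members above 50 per 10000. By the share of such members, the intervals of papain and DPBS overlapped in both genotypes. In WT these were 8.68% (5.30 to 13.2) and 17.9% (11.8 to 25.5), and in KO 22.4% (13.6 to 33.4) and 16.7% (10.0 to 25.3). The intervals of Papain WT and Papain KO did not overlap, and those of DPBS WT and DPBS KO did. Overlap of separate intervals is not a test and does not show that shares are equal. How many of all genes moved in opposite directions in this way was not counted. H2-Aa had a log2 ratio of papain over DPBS of -1.52 in WT and 0.43 in KO. H2-Ab1 had -1.33 and 0.55, H2-Eb1 -1.78 and 0.73, and Cd74, the class II chaperone, -1.37 and 0.29. C1qb, a complement chain, had -1.32 in WT and 1.63 in KO. Jun, an immediate early factor, had -0.27 and 1.11. Thbs1 went the other way, with 1.05 in WT and -0.46 in KO, as did Cxcl2, with 1.08 and -0.78. Outlying samples within a group could not be looked for, because no group had more than 1 library.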

How the results depend on the processing

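With the gate on cells thinned to 2000 UMIs, the share of members in KO over WT moved to 0.717-fold (0.383 to 1.30) in DPBS and 0.331-fold (0.175 to 0.589) in papain. The 29 genes past 2-fold with papain in both genotypes became 18 with the thinned gate (1 of them among the 29), 106 at a minimum of 10 UMIs and 1 at 200. The 33 genes past 2-fold for KO over WT in both treatments became 158 at 10 UMIs, 3 at 200 and 67 without the top member of each gene and library, and 2 of the 34 found with the thinned gate were among the 33. Membership changed with Ly6c2 too: of 25 and 39 genes at a minimum of 6, 8 and 11 were among the 29 and the 33, and of 23 and 43 at a minimum of 3, 15 and 24 were. Without the filter on low counts the C1q macrophage comparison called 1718 genes in place of 1131 and the class II comparison 93 in place of 41. DESeq2 called 24 in the latter. Without the library block, which pairs the populations of a library, the class II comparison called 23, the nonclassical comparison 702 in place of 715 and the C1q comparison 1107. Leaving out 1 library at a time gave 711 to 755, 1065 to 1252 and 35 to 45 calls in the nonclassical, C1q and class II comparisons.

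Ratios of some genes changed sign. With the thinned gate these were Lif (papain in WT, -0.76), Slc15a2 (KO over WT in DPBS, -0.78), Slamf9 (KO over WT in DPBS, 0.81) and Dgcr6 (KO over WT in papain, 1.00). With Ly6c2 of at least 6 they were Lif (-0.32), Cxcl10 (-0.28) and Cxcl9 (-0.97), all for papain in WT, and Cxcl9 was at -0.90 with Ly6c2 of at least 3. Without the top member they were Cd209a (papain in KO, 0.50) and Ly6a (KO over WT in papain, -0.57). With the top Scrublet scores left out, Wfdc21 was at 0.74 (KO over WT in DPBS). The cause was not tested. Of 1043 recomputed gene ratios 961 stayed within their interval, and of 497 recomputed fit values 471 kept their call and 26 lost it. The settings Ly6c2 of at least 6, members of at least 7000 UMIs and without the top member were chosen after seeing the data. Of the genes past 2-fold in both pairs few had 200 UMIs, which limits the precision of their ratios.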
